A study of Mus musculus with 12 samples.

Results

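Gene expression after 5 days of aggregate culture was compared with that after 1 day in BMEL cells, bipotential lines of mouse embryonic liver that can form hepatocyte-like or bile duct-like cells. The comparison used 8 of the series' 12 arrays, taken by their culture labels alone: 4 arrays of day 5 aggregates and 4 arrays of day 1 aggregates. Each day held 2 arrays of line 9A1 and 2 of line 14B3, which the design describes as independently isolated lines with biological duplicates. Both lines came from the liver of dpc14 embryos of a CBA/J x C57Bl/6J cross, and the labels name no genetic change and no agent for either line or either day. The other 4 arrays, of basal culture, were not compared here. Only 2 lines stand behind each day. With the line as a term, p-values measure the spread between replicate arrays and between the changes of these 2 lines. They leave out a steady difference in level between the lines.

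Total RNA was hybridised to Affymetrix mouse 430 2.0 arrays, and levels are log2 values of probe sets summarised by the authors with RMA. Of 18193 genes with a probe set, 15635 reached a log2 level of 5 on at least 2 of the 8 arrays and were tested with limma, with the line as a term. A gene is said to rise or fall where its Benjamini-Hochberg adjusted p was under 0.05, and every change is day 5 minus day 1 on the log2 scale, ± the standard error of the fit. Means are given ± SD over 4 arrays. In RNA from whole aggregates, fewer cells of a type and less RNA per cell cannot be told apart.

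Hepatocytes secrete plasma proteins and lipoproteins, dispose of ammonia and oxidise foreign compounds, whereas enterocytes of the small intestine carry a brush border of digestive enzymes and transporters and pack dietary fat into lipoproteins. Both cell types arise from the endoderm and share transcription factors of the HNF1 and HNF4 families. Fetal liver progenitors divide, carry surface proteins such as EpCAM and CD24, and lay down a matrix to which they attach through integrins and actin fibres.

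The arrays differed in how closely replicates matched. Array medians lay between 6.10 and 6.24, and component 1 of a principal component analysis, with 62.7% of the variance, put the day 1 arrays at -53.04 to -38.92 and the day 5 arrays at 38.77 to 65.33. The 2 day 1 arrays of 9A1 stood apart from each other, at 42.60 and -52.69 on component 2 (17.1%). Their values correlated at 0.935 over genes, against 0.991 for the day 1 pair of 14B3, 0.982 for the day 5 pair of 9A1 and 0.996 for the day 5 pair of 14B3. Each of those day 1 9A1 arrays correlated best with a day 1 array of the other line. Calls that changed when 1 array was left out are given for many of the genes below, but not for all.

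**Figure D1:**
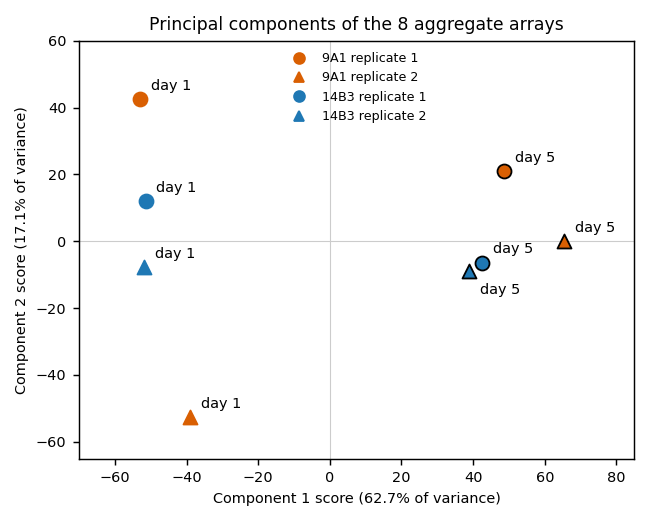
Scores of the 8 arrays on the principal components of the tested genes, with the share of variance on each axis, colour for the line and marker shape for the replicate. The day 1 arrays lie at or below -38.92 on component 1 and the day 5 arrays at or above 38.77, and the 2 day 1 arrays of 9A1 are the farthest apart on component 2.

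From day 1 to day 5, 2112 genes rose, which is 13.5% of the genes tested, and 1821 genes fell, which is 11.6%. In each line the change of all 3933 had that sign, which fitting the mean of the lines favours. Large changes were mostly rises: 172 genes rose and 8 fell by at least 8-fold, and 90 rose and 3 fell by at least 16-fold. Every day 5 array was above every day 1 array for 15.2% of genes, and below for 12.1%. Leaving out the day 1 array 9A1 replicate 2 gave 2591 rises and 3301 falls, and line 14B3 alone gave 3074 falls, whereas leaving out 14B3 replicate 1 of day 1 gave 1175 falls and leaving out the day 5 arrays of 14B3 gave 1167 and 1183 falls. Of the 15635 genes, 473 rose and 82 fell in 9A1 alone, and 2722 rose and 3074 fell in 14B3 alone, each with 2 arrays a day. Counts of called members in each list below, for both lines together, stand beside rises in 13.5% and falls in 11.6% of all genes. List counts for 1 line stand beside that line's totals. List counts with 1 array left out stand beside 1610 to 2591 rises and 1167 to 3301 falls.

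**Figure D2:**
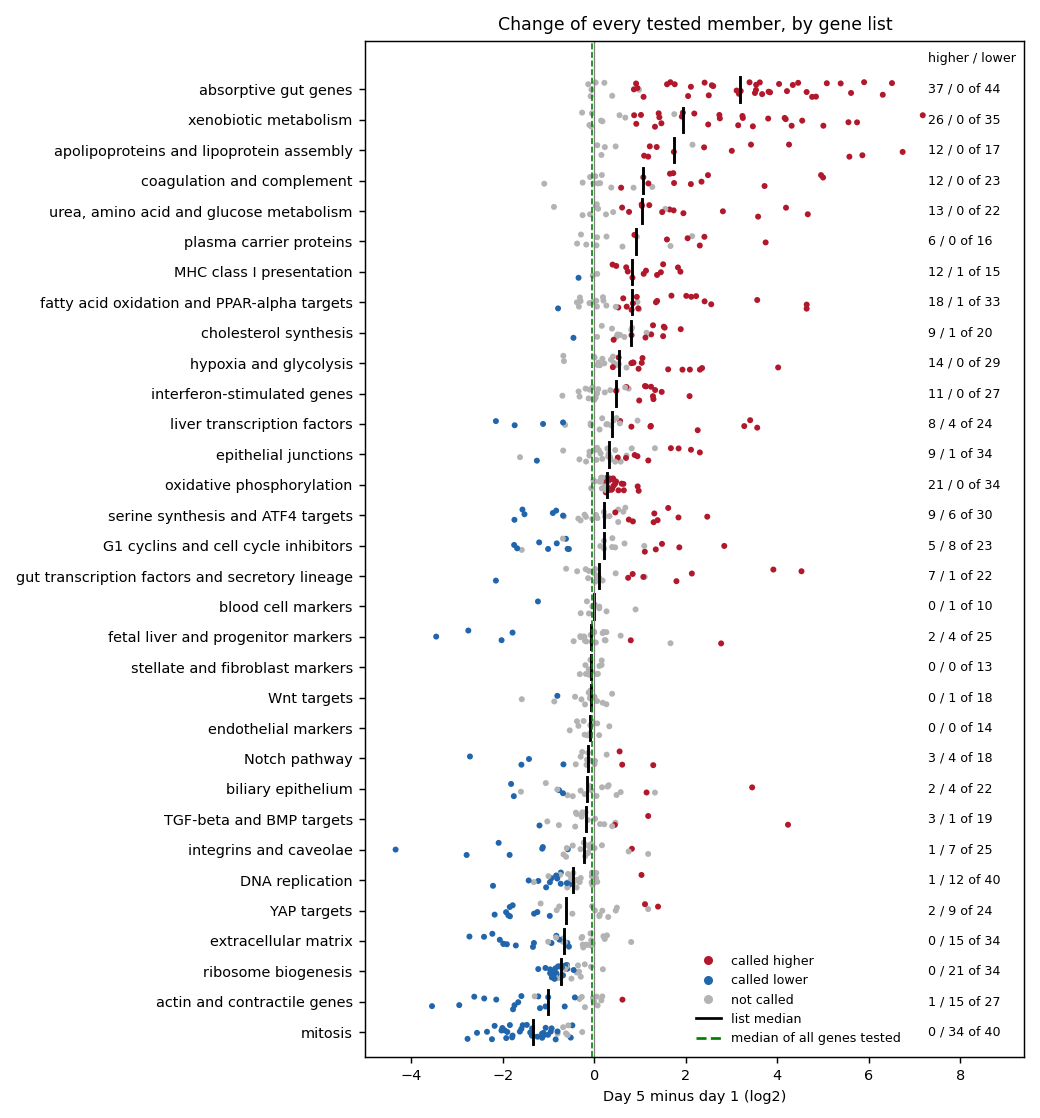
Day 5 minus day 1 (log2) of every tested member of the 32 gene lists, with called rises in red, called falls in blue, the list median as a black bar and the median of all tested genes (-0.04) as a dashed line. Counts at the right give members higher and lower of those tested. Gut, drug metabolism and lipoprotein lists lie to the right, and mitosis, contractile and ribosome biogenesis lists to the left.

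Genes of absorptive gut epithelium, the cells that digest and take up food, rose. Of 44 tested members of that list 37 rose and none fell, with a median change of 3.18, where the median over all genes tested was -0.04 and 13.5% of all genes rose. The other 7, Fabp1, Xpnpep2, Slc5a1, Plb1, Slc2a5, Espn and Slc6a19, had changes between -0.13 and 0.98. In line 14B3 alone 38 of the members rose and in 9A1 alone, where 2 arrays a day were tested, 26 rose, and leaving out any 1 array left between 34 and 39.

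Brush border enzymes moved far. Lct, the lactase that splits milk sugar, was at 4.80 and 5.42 in 9A1 and 5.04 and 5.20 in 14B3 at day 1, and 11.59 and 11.32 in 9A1 and 9.26 and 8.62 in 14B3 at day 5. All 4 day 1 values were near the floor of 5 and all 4 day 5 values lay above 8. Its change was 5.08 ± 0.48, a 33.9-fold difference (limma adjusted p = 0.000148). Mep1b, the beta subunit of the protease meprin, was at 4.56 and 5.33 in 9A1 and 4.59 and 4.84 in 14B3 at day 1, and 11.83 and 12.05 in 9A1 and 10.39 and 10.28 in 14B3 at day 5, and rose by 6.31 ± 0.30 (4.88e-06, limma adjusted p). Its day 5 levels were higher in 9A1 than in 14B3. Other rises in this class were 4.76 for Treh (trehalase), 4.64 for Mgam (maltase-glucoamylase), 4.21 for Enpep, 3.62 for Anpep and 3.16 for Dpp4, which are aminopeptidases and a dipeptidyl peptidase, and 3.54 for Alpi, the intestinal alkaline phosphatase.

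Several transporters and lipid handling genes of the enterocyte rose too. Fabp2, the intestinal fatty acid binding protein, was at 10.13 and 10.99 in 9A1 and 10.45 and 10.26 in 14B3 at day 1, and 14.07 and 14.09 in 9A1 and 13.89 and 13.84 in 14B3 at day 5. The lowest day 5 array was 2.84 above the highest day 1 array, and the change was 3.51 ± 0.17 (limma adjusted p = 4.82e-06). Npc1l1, which takes up cholesterol from the gut lumen, rose by 5.39 ± 0.23, and Abcg5 and Abcg8, the paired half-transporters that pump sterols back out, rose by 4.46 ± 0.15 and 3.67 ± 0.19. Slc15a1, the peptide carrier PEPT1, rose by 4.04 ± 0.24, from a day 1 mean of 4.01 ± 0.25 that lay under the floor of 5, where background limits the size of a change. Slc2a2, a glucose carrier of gut and liver, rose by 4.85 ± 0.37, whereas Slc5a1, the sodium-glucose carrier of the brush border, had a change of 0.22 ± 0.16 and was not called.

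Structural genes of the microvillus rose as well. Vil1, which encodes the actin bundler villin, was at 11.12 and 12.10 in 9A1 and 12.12 and 12.03 in 14B3 at day 1, and 12.71 and 12.96 in 9A1 and 12.67 and 12.68 in 14B3 at day 5, and rose by 0.91 ± 0.21 (limma adjusted p = 0.0139, 0.0509 without the day 5 array 9A1 replicate 2 and 0.410 when all 12 arrays were fitted). Day 1 9A1 replicate 1 was the low array, and no day 1 array reached a day 5 array. Myo1a, the motor that ties the actin core to the membrane, rose by 3.39 ± 0.23, Ush1c by 3.20 ± 0.29 and Cdhr2, a cadherin between microvilli, by 3.11 ± 0.30. Cdh17, the liver-intestine cadherin, rose by 0.94 ± 0.11.

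The largest rise of any gene was that of 2010106E10Rik, at 3.92 and 3.75 in 9A1 and 3.69 and 3.99 in 14B3 at day 1, and 12.64 and 12.83 in 9A1 and 11.86 and 11.56 in 14B3 at day 5. Its day 1 levels were all under the floor, so it passed the filter through its day 5 arrays alone, a route open only to genes higher at that day. The fitted change was 8.39 ± 0.23 (limma adjusted p = 4.97e-07), and background limits its size. Clca4b, of the calcium-activated chloride channel regulator family, was at 5.61 and 6.20 in 9A1 and 5.47 and 5.63 in 14B3 at day 1, and 13.99 and 13.83 in 9A1 and 13.95 and 13.82 in 14B3 at day 5. Its 4 day 5 values spanned only 13.82 to 13.99, close to the top of the scale where RMA values compress, and its change was 8.17 ± 0.16. The related genes Clca4a and Clca1 rose by 3.91 ± 0.40 and 2.13 ± 0.40, and Clca3b fell by 2.51 ± 0.27, and probes for members of so close a family may cross-hybridise. The others among the 12 largest rises were 2210407C18Rik (7.53), Cyp2c29 (7.18), Slc13a1, a sodium-sulfate carrier (7.15), Bcl2l15 (6.81), Apoa4 (6.74), Agmo, which cleaves ether lipids (6.53), Lypd8 (6.51), Ceacam20 (6.47), Tmem45b (6.31) and Mep1b. Tmem45b was also under the floor on every day 1 array and passed the filter through day 5 alone.

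Of 22 tested gut transcription factors and secretory lineage genes, 7 rose and 1 fell, with a median of 0.10, and 2 rose in 9A1 alone. Hnf4g, the HNF4 paralog of the gut, was at 6.67 and 6.42 in 9A1 and 5.80 and 5.62 in 14B3 at day 1, and 10.47 and 11.18 in 9A1 and 10.36 and 10.61 in 14B3 at day 5, and rose by 4.53 ± 0.20 (limma adjusted p = 3.46e-06). The nearest values of the days were 3.69 log2 units apart. Isx, an intestine-specific homeobox gene, rose by 1.80 ± 0.40, Elf3 by 1.07 ± 0.16 and Klf4 by 0.74 ± 0.13. Cdx2, the homeobox factor that sets intestinal identity, was already at 10.73 ± 0.09 at day 1 and at 10.91 ± 0.32 at day 5, with a change of 0.18 ± 0.16 that was not called (limma adjusted p = 0.51, and 0.0449 in 14B3 alone). The goblet and enteroendocrine factors Atoh1, Spdef and Neurog3 had changes of -0.13, 0.06 and -0.19, and the goblet mucin Muc2 had -0.01, none of them called.

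Lipoprotein genes formed the next block. Of 17 tested apolipoprotein and assembly genes 12 rose and none fell, with a median change of 1.74. Apoa4, an apolipoprotein of intestinal lipoproteins, was at 6.97 and 7.18 in 9A1 and 7.31 and 7.33 in 14B3 at day 1, and 14.35 and 14.26 in 9A1 and 13.90 and 13.24 in 14B3 at day 5, and rose by 6.74 ± 0.22, which is 107-fold (limma adjusted p = 8.28e-07). Within each day the 4 arrays lay close together, and the nearest values of the days were 5.91 log2 units apart. Apoc3, an inhibitor of lipoprotein lipase, was at 5.65 and 7.21 in 9A1 and 7.11 and 7.09 in 14B3 at day 1, and 13.24 and 13.02 in 9A1 and 12.34 and 11.90 in 14B3 at day 5, and rose by 5.86 ± 0.41, with day 1 9A1 replicate 1 the low array. Mttp, which loads lipid onto nascent apolipoprotein B, rose by 5.58 ± 0.29, and Apob itself, high at day 1 (12.38 ± 0.67), by 1.18 ± 0.25.

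Apoc2, Apobec1 (the editing enzyme of Apob RNA), Apoa1 and the HDL receptor Scarb1 rose by 4.26, 3.43, 3.01 and 2.40. The size for Apoa1 rests in part on day 1 9A1 replicate 1, at 9.19 against 12.34 to 12.48 on the other day 1 arrays. Not called were Apoc1 (2.15 ± 0.74, limma adjusted p = 0.0669), Apoe (0.47 ± 0.57), Lcat (0.23 ± 0.15), Apoa5 (0.16 ± 0.16) and Apom (0.07 ± 0.14). Fatty acid genes moved in the same direction for the most part: of 33 tested members of the fatty acid oxidation and PPAR-alpha list 18 rose (11 in 9A1 alone) and 1 fell, with a median of 0.82. Cd36, a fatty acid receptor, was at 4.63 and 4.53 in 9A1 and 5.19 and 5.56 in 14B3 at day 1, and 10.40 and 10.97 in 9A1 and 8.72 and 8.39 in 14B3 at day 5. All day 5 values exceeded all day 1 values, and the rise was 4.64 ± 0.53. Ehhadh, of peroxisomal oxidation, rose by 4.64 ± 0.22, the acyltransferases Dgat1 and Mogat2, which rebuild triglyceride, rose by 2.41 ± 0.14 and 2.23 ± 0.14, and the mitochondrial genes Hadha and Hadhb by 0.53 ± 0.09 and 0.71 ± 0.08. Cpt1a, the carnitine transferase that admits fatty acids to mitochondria, was the member that fell, by 0.79 ± 0.13 (limma adjusted p = 0.00269), and leaving out day 5 9A1 replicate 1 gave 2 falls.

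Secreted liver proteins rose in part. Of 16 tested plasma carrier genes 6 rose and none fell, with a median of 0.90. Alb, the serum albumin gene, was at 9.99 and 7.39 in 9A1 and 9.79 and 9.58 in 14B3 at day 1, and 14.21 and 11.88 in 9A1 and 13.63 and 12.01 in 14B3 at day 5. Replicates differed widely, with day 1 9A1 replicate 2 the lowest of its day and 9A1 replicate 1 the highest at day 5, but no day 1 array reached a day 5 array. The rise was 3.75 ± 0.70, or 13.4-fold (limma adjusted p = 0.0047, 0.0586 when all 12 arrays were fitted). Hpx, the heme carrier hemopexin, rose by 2.41 ± 0.17, and Itih4, Fetub and Apoh by 2.31, 2.04 and 1.59. Ttr, the thyroxine carrier transthyretin, was near the top of the scale at both days, at 13.01 ± 0.44 and 13.88 ± 0.38, and rose by 0.88 ± 0.19 (0.00896, limma adjusted p, and 0.690 when all 12 arrays were fitted). The days overlapped for Ttr, with day 1 14B3 replicate 1 (13.37) above day 5 9A1 replicate 2 (13.34).

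Afp, the fetal counterpart of albumin, was at 9.12 and 11.06 in 9A1 and 11.52 and 11.36 in 14B3 at day 1, and 13.69 and 11.73 in 9A1 and 12.25 and 12.06 in 14B3 at day 5. The groups did not overlap, with 9A1 replicate 1 both the lowest day 1 array and the highest day 5 array, and the change of 1.67 ± 0.58 was not called (limma adjusted p = 0.0697). In 14B3 alone the change was 0.71 and was called. Rbp4, Hp, Ahsg, Ambp, Itih1, Itih2, Itih3, Cp and Azgp1 were also not called, and 1 fall was called without day 5 9A1 replicate 1. In 9A1 alone 1 carrier gene rose.

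Coagulation and complement genes gave 12 rises and no fall among 23 tested, with a median of 1.07. Fga, which encodes the fibrinogen alpha chain, was at 6.26 and 4.96 in 9A1 and 4.32 and 4.63 in 14B3 at day 1, and 11.92 and 10.15 in 9A1 and 9.70 and 8.23 in 14B3 at day 5, and rose by 4.96 ± 0.50 (limma adjusted p = 0.000205), with 3 of the day 1 arrays under the floor. Fgb, the beta chain, rose by 3.72 ± 0.78, with an overlap of day 1 9A1 replicate 1 (8.66) and day 5 14B3 replicate 2 (7.87). Fgg, the gamma chain, had a change of 1.27 ± 0.41 that was not called (limma adjusted p = 0.0537). Kng1, the kininogen gene, rose by 5.00 ± 0.55, complement factors Cfi and Cfb by 2.49 ± 0.54 and 2.34 ± 0.16, and Serpind1 by 2.11 ± 0.39. The terminal complement gene C9 went the other way without being called (-1.09 ± 0.46). Without either day 1 9A1 array a fall was called for 1 member, and 3 members rose in 9A1 alone.

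The promoters of Alb and Fga are shown because both genes are expressed mainly in hepatocytes, both rose and both carry the same motif close to the start. Sequences are those of RefSeq for GRCm38.p6, 5′ to 3′, from 250 bases before to 50 after the start, on the plus strand at chr5:90460620-90460919 for Alb and chr3:83025903-83026202 for Fga. Capitals mark a match to the HNF1 motif GTTAATNAT on either strand, 32 bases before the start in Alb and 46 in Fga, where the first letter of the match is counted.
Alb: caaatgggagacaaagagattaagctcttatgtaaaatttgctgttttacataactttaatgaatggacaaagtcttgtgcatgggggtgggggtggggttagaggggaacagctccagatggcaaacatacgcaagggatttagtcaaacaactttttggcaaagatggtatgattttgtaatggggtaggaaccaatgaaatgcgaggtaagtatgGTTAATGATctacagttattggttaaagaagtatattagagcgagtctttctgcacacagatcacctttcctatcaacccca
Fga: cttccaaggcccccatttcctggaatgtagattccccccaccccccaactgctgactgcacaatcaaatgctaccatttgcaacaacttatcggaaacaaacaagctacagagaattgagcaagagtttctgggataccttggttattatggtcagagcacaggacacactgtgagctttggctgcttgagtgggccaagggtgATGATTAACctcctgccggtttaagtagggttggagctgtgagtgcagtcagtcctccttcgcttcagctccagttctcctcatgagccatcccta
In the table of promoters, 12507 of the tested genes had an entry, with 15846 promoters. The HNF1 motif stood in 0.568% of all these promoters, 1.16% of those of genes that rose, 0.513% of those of genes that fell and 5.39% of those of genes that rose at least 8-fold, which is 9 of 167. An HNF4 motif, CAAAGTCCA, stood in 0.536%, 1.07%, 0.41% and 4.79% of the same sets. A CDX motif, TTTATTGC, stood in 0.568%, 0.624%, 0.257% and 0.599%. These shares describe letters in a window and were not tested.

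Genes of urea, amino acid and glucose metabolism gave 13 rises and no fall among 22 tested, with a median of 1.04. Cps1, the entry enzyme of the urea cycle, was at 5.83 and 7.65 in 9A1 and 7.46 and 7.05 in 14B3 at day 1, and 11.88 and 11.26 in 9A1 and 10.77 and 10.84 in 14B3 at day 5, and rose by 4.19 ± 0.42 (limma adjusted p = 0.0002). The nearest values of the days were 3.12 log2 units apart. Otc, the next enzyme of the cycle, rose by 3.58 ± 0.28, the ornithine carrier Slc25a15 by 2.81 ± 0.21, Nags by 1.74 ± 0.34 and Asl by 0.61 ± 0.15. G6pc, the last step of glucose release, rose by 4.67 ± 0.43 and its partner Slc37a4 by 1.48 ± 0.28. Pck1, the rate-setting enzyme of glucose synthesis, had a change of 0.41 ± 0.22, and Tat and Tdo2, which mark mature hepatocytes, had 0.06 ± 0.20 and 0.08 ± 0.21 and were not called. A fall was called for 1 member without day 5 9A1 replicate 1, and 8 members rose in 9A1 alone.

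Genes of xenobiotic metabolism, the disposal of foreign compounds in liver and gut, rose. Of 35 tested members 26 rose and none fell, with a median of 1.94, and 18 rose in 9A1 alone, while 14B3 alone gave 31 rises and 1 fall. Cyp2c29, a cytochrome P450 that oxidises drugs and fatty acids, was at 5.57 and 6.36 in 9A1 and 5.15 and 5.34 in 14B3 at day 1, and 13.21 and 12.95 in 9A1 and 12.51 and 12.47 in 14B3 at day 5. Day 1 levels lay between 5.15 and 6.36 and day 5 levels were above 12 on all arrays, a rise of 7.18 ± 0.18 or 145-fold (limma adjusted p = 4.82e-07). Sult1b1, a sulfotransferase, rose by 5.74 ± 0.28, Cyp2d26 by 5.55 ± 0.20, Adh1 (alcohol dehydrogenase) by 5.01 ± 0.48, Cyp3a11 by 4.54 ± 0.64 and the carboxylesterases Ces2a and Ces2e by 4.18 ± 0.28 and 4.16 ± 0.19. Probes for Cyp2c, Ces2 and Ugt2b genes may read near-identical relatives, so single members are uncertain. Cyp1a1, Cyp1a2, Cyp2b10, Cyp27a1, Ephx1 and Gstm1 were not called, with changes between -0.11 and 1.75. Aldh3a1, an aldehyde dehydrogenase outside the list, was at 8.61 and 9.48 in 9A1 and 9.75 and 9.61 in 14B3 at day 1, and 4.60 and 4.28 in 9A1 and 4.98 and 4.96 in 14B3 at day 5. Every day 5 value lay under the floor, where background limits the size of a change, so Aldh3a1 passed the filter through its day 1 arrays alone. The fitted fall of 4.66 ± 0.20 was the largest. Cyp1b1, another P450, fell by 3.19 ± 0.47.

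**Figure D3:**
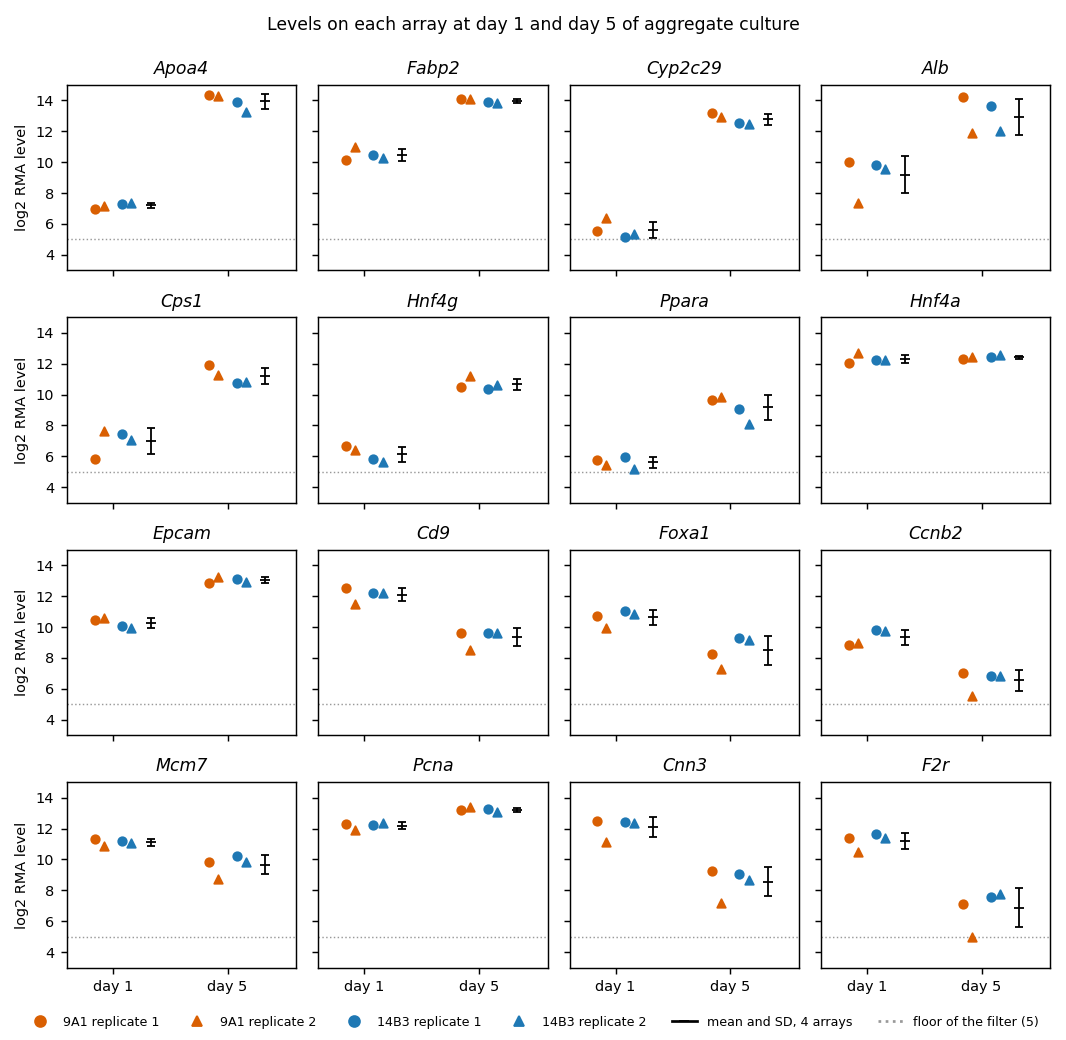
Log2 RMA levels of 16 genes on each of the 8 arrays, with colour for the line, marker shape for the replicate, bars for the mean and SD of 4 arrays per day, and a dotted line at the filter's floor of 5. Apoa4, Fabp2, Cyp2c29, Alb, Cps1, Hnf4g, Ppara, Epcam and Pcna are higher on every day 5 array, Cd9, Foxa1, Ccnb2, Mcm7, Cnn3 and F2r are lower on every day 5 array, and Hnf4a overlaps.

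Liver transcription factors split. Of 24 tested 8 rose and 4 fell, with a median of 0.40. The rises were all in nuclear receptors and a membrane-bound factor that act on metabolism. Ppara, which switches on fatty acid oxidation, was at 5.79 and 5.46 in 9A1 and 5.99 and 5.20 in 14B3 at day 1, and 9.67 and 9.87 in 9A1 and 9.06 and 8.09 in 14B3 at day 5, and rose by 3.56 ± 0.32 (limma adjusted p = 0.000123). The days did not overlap, and 14B3 replicate 2 was the lowest array of day 5. Nr5a2 rose by 3.41 ± 0.35, Creb3l3 by 3.28 ± 0.27, the drug sensors Nr1i3 (CAR) and Nr1i2 (PXR) by 2.26 ± 0.18 and 1.24 ± 0.13, the bile acid receptor Nr1h4 (FXR) by 1.23 ± 0.26, Esrra by 0.81 ± 0.11 and Rxra by 0.56 ± 0.12.

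The falls were those of Foxa1, Foxa2, Hhex and Cebpb. Foxa1, a pioneer factor, was at 10.72 and 9.94 in 9A1 and 11.02 and 10.87 in 14B3 at day 1, and 8.24 and 7.26 in 9A1 and 9.29 and 9.17 in 14B3 at day 5, and fell by 2.15 ± 0.28 (limma adjusted p = 0.000806). Its close relative Foxa2 was at 10.51 and 10.94 in 9A1 and 10.50 and 10.41 in 14B3 at day 1, and 9.54 and 8.11 in 9A1 and 8.92 and 8.83 in 14B3 at day 5, and fell by 1.74 ± 0.28. Neither gene's groups overlapped, and day 5 9A1 replicate 2 was the lowest array for both. Hhex, needed for the liver bud, fell by 1.12 ± 0.29 and Cebpb by 0.68 ± 0.16. Gata4, Tbx3, Prox1, Onecut1 and Foxa3 were not called. Leaving out the day 5 array 14B3 replicate 2 left 2 of the 4 falls, and 9A1 alone gave 4 rises and 1 fall. Hnf4a, the central hepatocyte regulator, was at 12.30 ± 0.26 at day 1 and 12.42 ± 0.10 at day 5, a change of 0.12 ± 0.13 that was not called (limma adjusted p = 0.626, and 0.0147 without day 1 9A1 replicate 2). That change turned to -0.01 after quantile normalisation and was -0.02 in 9A1 alone.

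Cell division genes fell. Of 40 tested mitosis genes 34 fell and none rose, with a median of -1.35, where 11.6% of all genes fell. Leaving out any 1 array left between 28 and 36 falls, 14B3 alone gave 36, and 9A1 alone gave 1. By size the lines were close, with a median change of -1.39 in 9A1 and -1.26 in 14B3. Ccnb2, which encodes cyclin B2 of the mitotic kinase, was at 8.83 and 8.98 in 9A1 and 9.80 and 9.71 in 14B3 at day 1, and 7.05 and 5.56 in 9A1 and 6.83 and 6.81 in 14B3 at day 5, and fell by 2.77 ± 0.29 (limma adjusted p = 0.000243). Day 5 9A1 replicate 2 was the lowest array, and no day 5 value reached a day 1 value. Ube2c, the ubiquitin enzyme of mitotic exit, was at 9.70 and 10.50 in 9A1 and 10.76 and 10.70 in 14B3 at day 1, and 8.01 and 5.76 in 9A1 and 8.95 and 8.68 in 14B3 at day 5, and fell by 2.56 ± 0.48. Ccna2, Bub1, Birc5 and Cdk1 fell by 2.34, 2.23, 2.18 and 1.63. Mki67, the proliferation marker, fell by 1.96 ± 0.42 with 1 overlapping value, that of day 5 14B3 replicate 1. Foxm1, Cdc25c, Kif2c, Melk, Smc4 and Ect2 were not called.

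Of 40 tested DNA replication genes 12 fell and 1 rose, with a median of -0.46, and falls numbered 19 without day 1 9A1 replicate 2, 19 in 14B3 alone and none in 9A1 alone. Line medians were -0.42 in 9A1 and -0.41 in 14B3. Mcm7, a subunit of the replicative helicase, was at 11.31 and 10.84 in 9A1 and 11.18 and 11.05 in 14B3 at day 1, and 9.84 and 8.75 in 9A1 and 10.22 and 9.85 in 14B3 at day 5, and fell by 1.43 ± 0.26 (limma adjusted p = 0.0043). Its day 5 arrays all lay below its day 1 arrays. Other helicase subunits fell by less or were not called, with -0.81 for Mcm2, -0.60 for Mcm3, -0.74 for Mcm4 (not called), -1.32 for Mcm5 (not called) and -0.42 for Mcm6 (not called). Rrm2, which makes deoxynucleotides, was at 9.73 and 10.11 in 9A1 and 10.34 and 10.15 in 14B3 at day 1, and 8.11 and 5.27 in 9A1 and 9.23 and 8.88 in 14B3 at day 5, and fell by 2.21 ± 0.62 (0.0295, limma adjusted p), a size that rests on day 5 9A1 replicate 2: without it the change was -1.44. That call was lost (0.0509 to 0.0580) when either day 1 array of 9A1, either day 1 array of 14B3 or day 5 14B3 replicate 2 was left out. Pcna, the sliding clamp, was the member that rose, at 12.29 and 11.88 in 9A1 and 12.26 and 12.33 in 14B3 at day 1, and 13.20 and 13.38 in 9A1 and 13.24 and 13.08 in 14B3 at day 5. Its change was 1.03 ± 0.12 (limma adjusted p = 0.000392), with no overlap between the days.

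The promoters of Ccnb2, Ube2c and Mcm7 are shown because these genes fell with their lists and hold the motifs by which mitotic and replication promoters are known. They come from the same RefSeq table, at chr9:70421505-70421804 on the minus strand for Ccnb2, chr2:164769679-164769978 on the plus strand for Ube2c and chr5:138171834-138172133 on the minus strand for Mcm7, each 5′ to 3′ along the gene. Capitals mark the cell cycle homology region (CHR) letters TTTGAA on either strand in Ccnb2 and Ube2c, and E2F motifs (TTTCCCGC, TTTGGCGC or TTTCGCGC, either strand) in Mcm7.
Ccnb2: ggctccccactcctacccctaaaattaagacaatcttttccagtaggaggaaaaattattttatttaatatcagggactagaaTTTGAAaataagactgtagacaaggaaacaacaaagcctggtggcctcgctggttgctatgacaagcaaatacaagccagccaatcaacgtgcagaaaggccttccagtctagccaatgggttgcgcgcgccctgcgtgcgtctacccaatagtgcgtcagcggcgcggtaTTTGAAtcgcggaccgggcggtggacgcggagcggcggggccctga
Ube2c: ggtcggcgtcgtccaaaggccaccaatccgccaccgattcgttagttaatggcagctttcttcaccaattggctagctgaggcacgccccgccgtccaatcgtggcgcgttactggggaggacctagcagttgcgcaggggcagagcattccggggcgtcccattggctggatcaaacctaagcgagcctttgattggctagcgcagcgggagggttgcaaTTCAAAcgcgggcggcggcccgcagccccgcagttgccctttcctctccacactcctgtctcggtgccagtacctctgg
Mcm7: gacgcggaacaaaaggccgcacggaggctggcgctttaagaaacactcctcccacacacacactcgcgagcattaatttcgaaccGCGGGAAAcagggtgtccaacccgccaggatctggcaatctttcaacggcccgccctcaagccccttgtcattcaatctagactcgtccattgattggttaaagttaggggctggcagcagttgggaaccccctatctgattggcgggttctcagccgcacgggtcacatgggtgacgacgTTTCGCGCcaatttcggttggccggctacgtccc
Ccnb2 held CHR letters 167 bases before and 4 bases after the start, Ube2c 29 bases before it, and Mcm7 E2F letters 165 bases before and 16 after. A further Mcm7 start in the table held none of the motifs searched. CHR letters stood in 26 of 33 mitosis promoters (78.8%) and in 10.8% of replication promoters, against 12.6% of all promoters, 22.2% of those of genes that rose at least 8-fold and 37.1% of those of the xenobiotic list. E2F letters stood in 14 of 37 replication promoters (37.8%) and in 9.09% of mitosis promoters, against 2.94% of all. Among all genes that fell, 12.5% of promoters held CHR letters and 4.21% held E2F letters. No test was run on these shares.

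Regulators of the G1 phase went both ways, with 5 rises and 8 falls among 23 tested and a median of 0.21. Cdk4, the kinase that opens the cycle, was at 11.90 and 11.05 in 9A1 and 11.66 and 11.73 in 14B3 at day 1, and 10.11 and 9.54 in 9A1 and 9.92 and 9.77 in 14B3 at day 5, and fell by 1.75 ± 0.20 (limma adjusted p = 0.000411). The nearest values of the days were 0.94 log2 units apart. Mycn fell by 1.68 ± 0.24, Cdk6 by 1.01 ± 0.26 and Ccnd3 by 0.82 ± 0.17, while Ccnd1 had a change of -1.58 ± 0.54 that was not called. Cdkn2b, the CDK4 inhibitor p15, was at 9.14 and 6.10 in 9A1 and 5.46 and 5.85 in 14B3 at day 1, and 10.04 and 9.72 in 9A1 and 9.25 and 8.91 in 14B3 at day 5. Day 1 9A1 replicate 1 overlapped the day 5 range, and the rise was 2.84 ± 0.58 (0.00735, limma adjusted p). Rb1, which holds cells before S phase, rose by 1.86 ± 0.20 and its relative Rbl1 by 1.48 ± 0.22. Cdkn1a had 0.40 ± 0.17 and was not called, and Cdkn1b, another inhibitor, fell by 0.55 ± 0.15. The 8 falls became 4 without day 1 14B3 replicate 1 or day 5 9A1 replicate 2, and 5 without either day 5 array of 14B3. In 9A1 alone no member was called.

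Ribosome biogenesis genes fell together: 21 of 34 tested fell and none rose, with a median of -0.73. Npm1, nucleophosmin, was at 13.09 and 12.78 in 9A1 and 13.15 and 13.02 in 14B3 at day 1, and 11.81 and 11.58 in 9A1 and 11.99 and 11.79 in 14B3 at day 5, and fell by 1.22 ± 0.10 (limma adjusted p = 8.03e-05). The nearest values of the days were 0.79 apart, and day 5 9A1 replicate 2 was the lowest. Ncl, nucleolin, fell by 0.96 ± 0.09, Tsr1 by 1.07 ± 0.26 (0.0524 without day 1 14B3 replicate 1), and Dkc1, Nop56 and Mybbp1a by 0.93, 0.90 and 0.89. There were 13 falls without day 1 14B3 replicate 1 or without either day 5 array of 14B3, 28 in 14B3 alone and 2 in 9A1 alone. Both lines had a median change of -0.71.

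Contractile genes fell in part. Of 27 tested actin and contractile genes 15 fell and 1 rose, with a median of -1.01. Cnn3, calponin 3 of actin filaments, was at 12.46 and 11.12 in 9A1 and 12.43 and 12.38 in 14B3 at day 1, and 9.25 and 7.21 in 9A1 and 9.07 and 8.67 in 14B3 at day 5, and fell by 3.55 ± 0.43 or 11.7-fold (limma adjusted p = 0.000564). The 9A1 replicate 2 arrays were the lowest of each day, and the days did not overlap. Anxa1 (annexin A1) fell by 2.95 ± 0.19, Fscn1 (the bundler fascin) by 2.62 ± 0.21, Flna (filamin A) by 2.40 ± 0.37, Myh10 by 2.14 ± 0.40 and Vim (vimentin) by 1.07 ± 0.13. Gsn, which severs actin filaments and was not on the list, was the sixth largest fall of all genes, 3.39 ± 0.25. Of its 6 probe sets, 5 were lower at day 5. Actn4 rose by 0.62 ± 0.11 while Actn1, its paralog, fell by 1.19 ± 0.25. Acta2, Tagln and Cnn1, the smooth muscle genes, were low at both days and not called, and leaving out day 1 9A1 replicate 2 gave 2 rises in the list. In 9A1 alone 4 members fell.

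Part of the extracellular matrix list fell. Among 34 tested extracellular matrix genes 15 fell and none rose, with a median of -0.66. Timp2, an inhibitor of matrix proteases, was at 12.82 and 11.83 in 9A1 and 12.28 and 12.29 in 14B3 at day 1, and 10.41 and 9.74 in 9A1 and 9.55 and 9.89 in 14B3 at day 5, and fell by 2.41 ± 0.23 (limma adjusted p = 0.000176). Its lowest day 1 array exceeded its highest day 5 array by 1.42. Laminin chains fell by 2.73 ± 0.42 for Lamb3, 1.98 ± 0.47 for Lamb1 and 1.32 ± 0.13 for Lama5, and fibulins Fbln2 and Fbln1 by 2.23 ± 0.20 and 1.91 ± 0.23. Type IV collagen genes Col4a1 and Col4a2 had -0.24 ± 0.18 and -0.18 ± 0.19 and were not called, nor was Fn1 (-1.01 ± 0.65). A rise was called for 1 member without day 5 9A1 replicate 1, and falls numbered 2 in 9A1 alone and 19 in 14B3 alone. Line medians were -0.59 in 9A1 and -0.78 in 14B3. Mmp13, a collagenase outside the list, fell by 4.19 ± 0.24 to a day 5 mean of 5.33 ± 0.67, near the floor. The other genes among the 12 largest falls were Cd109, a surface protein that binds TGF-beta (-3.31), Slc44a2 (-2.98), Fgf13 (-2.98) and Ptprb, a receptor phosphatase (-2.96).

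The list of integrins, caveolae and coagulation receptors gave 7 falls and 1 rise among 25 tested, with a median of -0.23. Over all genes 11.6% fell and 13.5% rose. F2r, the thrombin receptor PAR1, was at 11.36 and 10.46 in 9A1 and 11.64 and 11.38 in 14B3 at day 1, and 7.13 and 5.01 in 9A1 and 7.55 and 7.78 in 14B3 at day 5, and fell by 4.34 ± 0.45 or 20.3-fold (limma adjusted p = 0.000236). Day 5 9A1 replicate 2 was the lowest, and the nearest values of the days were 2.67 log2 units apart. Among caveolar genes Cav1 fell by 2.79 ± 0.18, Cav2 by 2.09 ± 0.43, Cavin1 by 1.12 ± 0.14 and Cavin2 by 1.14 ± 0.28, while Cavin3 and Ehd2 had -0.67 ± 0.22 and -0.61 ± 0.24 and were not called. Most integrin genes were not called: Itga5 fell by 0.58 ± 0.18, Itga3 rose by 0.82 ± 0.13, and Itgb1, Itga6 and Itgav were at -0.09, -0.30 and -0.17. Leaving out day 1 9A1 replicate 2 gave 11 falls, and leaving out replicate 1 of 9A1 at either day gave 2 rises. In 9A1 alone there were 2 falls and no rise.

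Among 24 tested YAP targets, genes of the mechanically regulated Hippo pathway, 9 fell and 2 rose, with a median of -0.62. Ptpn14, Amotl1, Axl and Myof fell by 1.93, 1.88, 1.84 and 1.78. The classical targets Ccn1, Ccn2 and Ankrd1 had changes of 0.12 ± 0.29, 0.18 ± 0.52 and -0.76 ± 0.57 and were not called. Wwc1, which encodes the upstream Hippo protein KIBRA, rose by 1.11 ± 0.23. Crim1, the other rise, overlapped between days through day 1 9A1 replicate 1 (1.39, limma adjusted p = 0.0422). Its call was lost (0.0728 to 0.129) without any 1 array other than those of day 1 9A1, and 1 rise was left without any of the 14B3 arrays. In 9A1 alone 1 member fell and 1 rose.

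Of 25 tested genes of fetal liver and progenitors, a list that includes surface proteins, 2 rose and 4 fell, with a median of -0.06, beside rises in 13.5% and falls in 11.6% of all genes. Epcam, an epithelial adhesion molecule used to sort liver progenitors, was at 10.48 and 10.58 in 9A1 and 10.07 and 9.93 in 14B3 at day 1, and 12.88 and 13.24 in 9A1 and 13.14 and 12.90 in 14B3 at day 5, and rose by 2.77 ± 0.14 (limma adjusted p = 6.07e-06, and 0.0732 when all 12 arrays were fitted). The days did not overlap, and the lines differed little at day 5. Cd24a, a small glycosylated surface protein, was at 13.20 and 12.22 in 9A1 and 12.89 and 12.74 in 14B3 at day 1, and 11.74 and 9.77 in 9A1 and 10.75 and 10.68 in 14B3 at day 5, and fell by 2.02 ± 0.38 (0.00525, limma adjusted p). Its groups did not overlap, with day 5 9A1 replicate 2 the lowest.

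Cd9, a tetraspanin, was at 12.50 and 11.47 in 9A1 and 12.23 and 12.21 in 14B3 at day 1, and 9.63 and 8.50 in 9A1 and 9.63 and 9.64 in 14B3 at day 5, and fell by 2.75 ± 0.28 (limma adjusted p = 0.00023). Day 5 9A1 replicate 2 was the lowest, and the other 3 day 5 arrays lay within 9.63 to 9.64. Cd44, the hyaluronan receptor, was at 12.51 and 11.01 in 9A1 and 11.01 and 10.77 in 14B3 at day 1, and 10.83 and 9.03 in 9A1 and 9.26 and 9.03 in 14B3 at day 5, and fell by 1.79 ± 0.42 (0.0136). The 9A1 replicate 1 arrays were the highest of each day, and the day 5 array of that kind overlapped day 1. Of the 4 Cd44 probe sets, 3 were lower at day 5. Hmga2, a chromatin protein of embryonic cells, fell by 3.45 ± 0.40, and Prom1, the CD133 gene, rose by 0.80 ± 0.21 from a day 1 mean under the floor. The Prom1 call was lost without replicate 1 of 14B3 at day 1 or replicate 2 of either line at day 5 (0.0620 to 0.0727), with 1 rise left in the list, and when all 12 arrays were fitted (0.332). Dlk1, Thy1, Kit, Alcam, Ncam1 and Itga6 were not called, with changes between -0.30 and 0.03.

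Biliary genes showed little common direction, with 2 rises and 4 falls among 22 tested and a median of -0.15. The shares over all genes were 13.5% for rises and 11.6% for falls. Cftr, the chloride channel of bile duct and gut epithelium, was at 7.05 and 5.12 in 9A1 and 5.04 and 4.44 in 14B3 at day 1, and 9.14 and 10.17 in 9A1 and 8.66 and 7.49 in 14B3 at day 5, and rose by 3.45 ± 0.46 (limma adjusted p = 0.000832). Day 1 9A1 replicate 1 was the highest day 1 array, and it lay below every day 5 array. Slc10a2, the bile acid carrier of duct and ileum, rose by 1.14 ± 0.24. Only its day 5 9A1 arrays (5.22 and 5.44) reached the floor of 5, and it passed the filter through these alone. Its change was 1.75 in 9A1 and 0.53 in 14B3, and background limits the size of both. Aqp1, a water channel, fell by 1.82 ± 0.31 (0.0711, limma adjusted p, when all 12 arrays were fitted), Krt18 by 0.77 ± 0.13, Slc4a2 by 0.68 ± 0.10 and Sox4 by 1.76 ± 0.45 (0.0217, and 0.0521 to 0.0598 without any 1 of the 14B3 arrays). Krt19, the duct keratin, stayed near 13.9 and 13.7 (-0.21 ± 0.08, limma adjusted p = 0.0907, and 0.0178 without day 5 9A1 replicate 2). Sox9, a duct regulator, had -1.06 ± 0.41 (limma adjusted p = 0.0955, and 0.0248 without day 1 9A1 replicate 2). With same-numbered arrays of a line treated as pairs, the limma adjusted p of Sox9 was 0.00233. Leaving out day 1 9A1 replicate 2 gave 4 rises and 9 falls, and 9A1 alone gave 1 rise and no fall.

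Junction genes gave 9 rises and 1 fall among 34 tested, with a median of 0.33. Gjb1, connexin 32 of hepatocyte gap junctions, was at 9.96 and 10.33 in 9A1 and 9.62 and 9.65 in 14B3 at day 1, and 11.95 and 12.01 in 9A1 and 11.98 and 12.08 in 14B3 at day 5, and rose by 2.11 ± 0.14 (limma adjusted p = 3.10e-05, and 0.0728 when all 12 arrays were fitted), while Gja1, connexin 43, fell by 1.25 ± 0.23 (0.0534 when all 12 arrays were fitted). Neither gene's days overlapped. The tight junction genes Marveld3 and Ocln rose by 2.31 ± 0.22 and 1.84 ± 0.31, and Cdh1, E-cadherin, was at 0.17 ± 0.09 and not called. Without day 1 9A1 replicate 2 there were 14 rises and 3 falls, and without replicate 1 there were 2 falls. In 9A1 alone there were 2 rises and no fall.

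Energy metabolism rose by small steps in many genes. Of 34 tested oxidative phosphorylation genes 21 rose and none fell, with a median of 0.29. Cycs, cytochrome c, was at 12.32 and 12.56 in 9A1 and 12.19 and 11.91 in 14B3 at day 1, and 13.12 and 13.29 in 9A1 and 13.16 and 13.29 in 14B3 at day 5, and rose by 0.97 ± 0.12 (limma adjusted p = 0.000541). All day 5 arrays exceeded all day 1 arrays. Ndufa5, of complex I, rose by 0.95 ± 0.24 (limma adjusted p = 0.0202, and 0.0531 to 0.0711 without day 1 14B3 replicate 2 or either day 5 9A1 array). The other rises lay between 0.24 and 0.65, and leaving out 1 array left between 14 and 26. In 14B3 alone 26 members were called as rises, and in 9A1 alone none was, though the median change was 0.33 in 9A1 and 0.29 in 14B3.

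Of 29 tested hypoxia and glycolysis genes 14 rose and none fell, with a median of 0.53. Pfkp, a phosphofructokinase, was at 7.73 and 7.14 in 9A1 and 6.05 and 5.74 in 14B3 at day 1, and 10.95 and 11.60 in 9A1 and 10.42 and 9.76 in 14B3 at day 5, and rose by 4.02 ± 0.23 (limma adjusted p = 1.34e-05), and the nearest values of the days were 2.03 apart. Pfkfb4, Ankrd37, Ero1a, Slc2a1 and Vegfa, which respond to low oxygen, rose by 2.36, 2.31, 2.09, 1.62 and 0.84. Car9, Adm, Ndrg1, Ddit4 and Pdk1 were not called (0.08, 0.43, 0.01, -0.66 and 0.50). A fall of 1 member was called without day 1 9A1 replicate 2, and 6 members rose in 9A1 alone.

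Cholesterol synthesis genes gave 9 rises and 1 fall among 20 tested, with a median of 0.81. Dhcr7 and Sc5d, which act late in the pathway, rose by 1.89 ± 0.23 and 1.54 ± 0.22. The upstream genes Hmgcs1, Sqle, Fdft1 and Idi1 had 0.83, 0.51, 0.49 and 0.56 and were not called. Srebf2, the pathway's transcription factor, fell by 0.45 ± 0.13 (0.0375), with day 1 9A1 replicate 1 overlapping day 5. Leaving out either day 5 9A1 array, or replicate 2 of 14B3 at either day, left 5 rises. The fall of Srebf2 was lost without any 1 of the 14B3 arrays or day 5 9A1 replicate 1 (0.0936 to 0.131), with the mean of its probe sets (0.216), after median centring (0.0607) and when all 12 arrays were fitted (0.0829), and day 1 9A1 replicate 1 left out gave 2 falls. In 9A1 alone 1 member rose and in 14B3 alone 15, with medians of 1.13 in 9A1 and 0.55 in 14B3.

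The list of serine synthesis and ATF4 targets went both ways, with 9 rises and 6 falls among 30 tested and a median of 0.22. Among the rises were Atf3 (2.47 ± 0.54), Ddit3, which encodes CHOP (1.84 ± 0.18), Trib3 (1.62 ± 0.19), Atf5 (1.38 ± 0.14) and Atf4 itself (0.85 ± 0.08). Ddit3 was at 9.10 and 9.04 in 9A1 and 9.21 and 9.23 in 14B3 at day 1, and 11.22 and 11.04 in 9A1 and 11.21 and 10.46 in 14B3 at day 5, with no overlap between the days. Of the enzymes of serine and one-carbon metabolism, Psat1 fell by 1.57 ± 0.23, Phgdh by 1.52 ± 0.18 and Shmt2 by 0.83 ± 0.16, whereas Psph, Mthfd2 and Aldh1l2 had 0.64 ± 0.27, 0.53 ± 0.17 and 0.52 ± 0.38 and were not called. Psat1 was at 8.48 and 7.87 in 9A1 and 9.19 and 8.82 in 14B3 at day 1, and 7.21 and 6.44 in 9A1 and 7.22 and 7.22 in 14B3 at day 5, and its lowest day 1 array stayed above its highest day 5 array. Nupr1, a stress-induced chromatin protein, fell by 1.74 ± 0.32, with day 1 9A1 replicate 2 (8.84) below both day 5 14B3 arrays (9.08 and 9.06). Asns, a common ATF4 target, had 0.21 ± 0.18 and was not called, nor were Sesn2, Vldlr, Stc2, Fgf21 and Ddit4. In 9A1 alone 2 members rose and none fell.

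Antigen presentation genes rose. Of 15 tested MHC class I genes 12 rose and 1 fell, with a median of 0.84. B2m, the invariant light chain, rose by 0.70 ± 0.06, the peptide pump genes Tap1 and Tap2 by 0.48 ± 0.15 and 1.37 ± 0.20, and the immunoproteasome genes Psmb8, Psmb9 and Psmb10 by 1.13, 1.08 and 1.51. H2-K1 was at 9.29 and 9.59 in 9A1 and 8.08 and 7.88 in 14B3 at day 1, and 11.27 and 12.45 in 9A1 and 9.48 and 9.17 in 14B3 at day 5. Levels were higher in 9A1 than in 14B3 at both days, so the days overlapped across lines, and the rise was 1.88 ± 0.30 (0.00221, limma adjusted p, and 0.0883 without the line term), where the probes may read other H2 genes. H2-D1 rose by 1.83 ± 0.25. Pdia3 fell by 0.34 ± 0.08 (0.0138), which was lost without replicate 1 of 14B3 at day 1 or at day 5 (0.0553 and 0.0536), after median centring (0.0577) and with the mean of its 2 probe sets (0.639), of which 1 had the opposite sign. Of 27 tested interferon-stimulated genes 11 rose and none fell, with a median of 0.48. Parp14, Ifi35 and Ifih1 rose by 2.08 ± 0.22, 1.47 ± 0.11 and 1.33 ± 0.14, and Rsad2, Usp18, Mx2, Oas1a and Bst2 were not called. A fall of 1 member was called without either day 1 9A1 array. In 9A1 alone 1 member of each list rose.

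Signalling lists had small median changes. Among 18 tested Notch genes 3 rose and 4 fell, with a median of -0.15, where 13.5% of all genes rose and 11.6% fell. Notch1, the receptor, was at 10.34 and 9.20 in 9A1 and 10.60 and 10.66 in 14B3 at day 1, and 7.58 and 7.18 in 9A1 and 7.69 and 7.49 in 14B3 at day 5, and fell by 2.72 ± 0.26 (limma adjusted p = 0.000171). No value of the days overlapped. Notch2 and the feedback gene Nrarp fell by 1.43 ± 0.26 and 1.59 ± 0.29, the ligand Dll1 rose by 1.29 ± 0.29 and Rfng, which adds sugars to Notch, by 0.61 ± 0.15 (limma adjusted p = 0.02, and 0.0633 to 0.0658 without replicate 2 of 14B3 at day 1 or of either line at day 5). The effector genes Hes1, Hey1 and Heyl had -0.13, -0.17 and -0.16, not called. The 3 rises became 1 without replicate 2 of 9A1 or of 14B3 at day 5.

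Of 18 tested Wnt targets 1 fell and none rose, with a median of -0.08, where 11.6% of all genes fell and 13.5% rose. That fall was Glul, glutamine synthetase, by 0.81 ± 0.21 (0.0211), and it was lost without replicate 1 of 14B3 at day 1 or day 5 (0.0691 and 0.0528), while 2 falls were called without either day 1 9A1 array or day 5 9A1 replicate 1. Axin2 and Lgr5 had -0.07 ± 0.20 and 0.18 ± 0.11. Of 19 tested TGF-beta and BMP targets 3 rose and 1 fell, with a median of -0.19, beside 13.5% and 11.6% of all genes. Tgfbi, a secreted matrix protein, was at 6.08 and 6.24 in 9A1 and 6.23 and 6.36 in 14B3 at day 1, and 9.05 and 11.19 in 9A1 and 11.05 and 10.57 in 14B3 at day 5, and rose by 4.23 ± 0.40 (limma adjusted p = 0.000162). All 4 day 5 values stood well above day 1, the lowest in 9A1 replicate 1. Id1 and Id3 rose by 0.45 ± 0.09 and 1.18 ± 0.33, the latter (0.0312) with an overlap through day 1 9A1 replicate 1 and lost without any 1 of the day 1 14B3 arrays, the day 5 9A1 arrays or day 5 14B3 replicate 1 (0.0667 to 0.0920). Ltbp4 was the fall (1.20 ± 0.34, 0.0308), and it was lost (0.0519 to 0.0795) without the second array of 14B3 at day 1, of 9A1 at day 5 or of 14B3 at day 5, or the first of 14B3 at day 5. Falls numbered 2 and 5 without day 1 9A1 replicate 1 and replicate 2.

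Markers of blood, endothelial and stellate cells were mostly low. Of the blood, endothelial and stellate lists, with 14, 17 and 17 genes on the array, 10, 14 and 13 passed the filter, and 3, 2 and 4 were under the floor on all 8 arrays. The mean level of the blood list lay at 5.68 to 6.19 on the day 1 arrays and 5.70 to 6.11 on the day 5 arrays, of the endothelial list at 5.49 to 5.95 and 5.63 to 5.69, and of the stellate list at 5.33 to 5.88 and 5.45 to 5.64. Cd68, a lysosomal protein of macrophages, was the only member called, with a fall of 1.23 ± 0.27. Without day 1 9A1 replicate 1 endothelial falls numbered 2, and without replicate 2 there was 1 rise each in the blood and endothelial lists. Ptprc of leukocytes, Hba-a1 of red cells, Tek of endothelium and Lrat of stellate cells were below 5 on every array. Csf1r, the macrophage growth factor receptor, was higher, at 9.72 and 10.15 in 9A1 and 10.04 and 9.85 in 14B3 at day 1. At day 5 it was at 11.99 and 12.02 in 9A1 and 9.53 and 9.84 in 14B3. Its change of 0.90 ± 0.42 was not called. Cd68 at day 1 (6.83 to 8.08) and Des, a stellate marker, on all arrays (6.78 to 7.28) also lay above the floor. In 9A1 alone 1 member of the blood list rose and none fell. Ttr of hepatocytes, Krt19 of ducts, and Vil1 and Cdx2 of gut were each above 10 on all arrays. Other markers of these cell types varied at day 1. Apob was at 11.60 to 13.01 and Fabp2 at 10.13 to 10.99. Cps1 was at 5.83 to 7.65, Fgb at 4.87 to 8.66, Cftr at 4.44 to 7.05 and Lct at 4.80 to 5.42. Tat, a marker of mature hepatocytes, did not exceed 6.54 on any array. Their part in the changes was not tested.

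The changes in 9A1 and in 14B3 had a correlation of 0.847 across 15635 genes, which are not independent of each other. A difference between the lines was called for 11 genes, 0.0704% of those tested, by limma's interaction term, and 643 had an unadjusted p under 0.05. In 10 of them the rise was larger in 9A1. Heph, the ferroxidase hephaestin that oxidises iron exported from enterocytes, was at 3.88 and 4.01 in 9A1 and 3.79 and 3.64 in 14B3 at day 1, and 10.02 and 10.04 in 9A1 and 5.79 and 5.09 in 14B3 at day 5. Day 1 levels were under the floor in both lines, so Heph passed the filter through its day 5 arrays alone. At day 5 both 9A1 arrays were above both 14B3 arrays by at least 4 log2 units. The change in 14B3 minus that in 9A1 was -4.36 ± 0.36 (interaction adjusted p = 0.0167, limma).

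Mep1a, the alpha subunit of meprin, was at 6.78 and 6.55 in 9A1 and 6.50 and 6.52 in 14B3 at day 1, and 10.89 and 11.20 in 9A1 and 7.33 and 7.34 in 14B3 at day 5, with a difference between lines of -3.55 ± 0.29 (limma interaction adjusted p = 0.0167). The gain was 4.38 in 9A1 and 0.82 in 14B3, while Mep1b gained 6.99 and 5.62 (limma interaction adjusted p = 0.702). Guca2a, the gut peptide guanylin, was at 7.39 and 8.16 in 9A1 and 8.27 and 8.33 in 14B3 at day 1, and 13.32 and 13.45 in 9A1 and 10.55 and 10.19 in 14B3 at day 5, with a difference of -3.54 ± 0.38, and its neighbour Guca2b, uroguanylin, had -3.28 ± 0.31. H2-Q2 was higher at day 5 in 9A1, at 3.58 and 3.52 in 9A1 and 3.48 and 3.45 in 14B3 at day 1, and 8.05 and 8.59 in 9A1 and 3.58 and 3.64 in 14B3 at day 5, with a difference of -4.62 ± 0.29. Its 14B3 arrays stayed under the floor at both days, and it passed the filter only through the day 5 9A1 arrays that make this difference. Ms4a6b had -4.05 ± 0.39, and its rise over both lines, 2.57 ± 0.72, lost its call without any 1 of the 9A1 arrays (0.0582 to 0.0953). The rise of Mep1a over both lines was lost without day 5 9A1 replicate 2 (0.0520).

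The exception was Nepn, nephrocan, an inhibitor of TGF-beta signalling, at 5.64 and 5.55 in 9A1 and 5.73 and 5.69 in 14B3 at day 1, and 4.95 and 4.92 in 9A1 and 9.81 and 8.96 in 14B3 at day 5. It was higher at day 5 in 14B3 and slightly lower in 9A1, with a difference between lines of 4.33 ± 0.40 (limma interaction adjusted p = 0.0205). These calls depend on which arrays enter: no difference was called without any 1 of the 14B3 arrays, 1 and 2 without 9A1 replicate 1 and replicate 2 of day 5, and 1936 and 188 without 9A1 replicate 1 and replicate 2 of day 1. With all 12 arrays fitted there were 6.

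**Figure D4:**
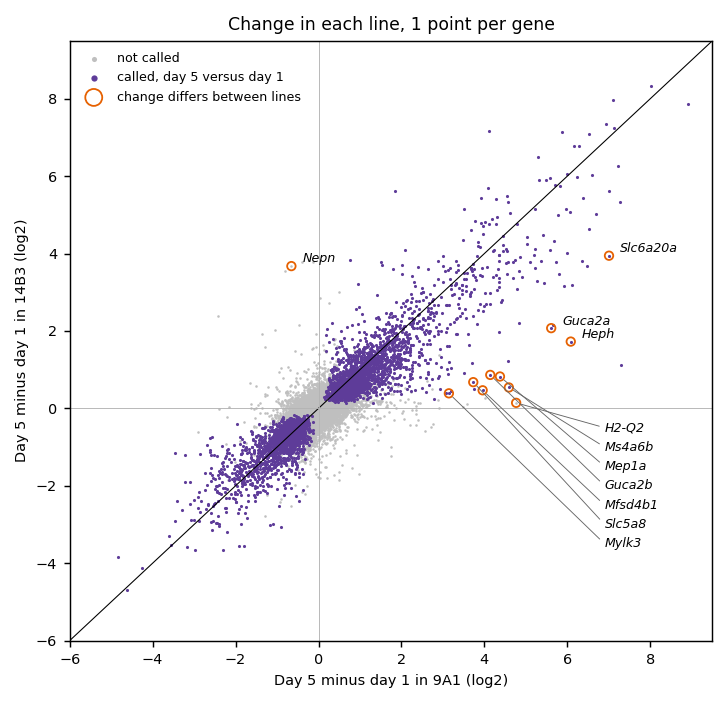
Day 5 minus day 1 (log2) in line 14B3 against that in line 9A1, 1 point per tested gene, with genes called for the change in purple and the 11 genes whose change differs between lines ringed and named. Most points follow the diagonal, 10 ringed genes lie below it with the larger rise in 9A1, and Nepn lies above it.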

How the data were processed

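Expression was measured in 8 Affymetrix mouse 430 2.0 arrays of aggregate culture, 4 per day. The deposited values are log2 levels that the authors made with RMA (per the submitters' processing notes, under R 2.3.1). Array medians lay between 6.10 and 6.24 and the number of arrays limits precision. RMA brings arrays towards 1 distribution, so a change in total RNA per cell is not seen, and it compresses the top of the scale. The SD over probe sets was 2.13 on day 1 9A1 replicate 2 and 2.25 to 2.33 on the others.

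Of 45101 probe sets, 34945 have 1 gene in GEO's platform annotation, 932 have several, 9160 have none and 64 are controls; 34741 were found in the RefSeq table, 2 list genes through an older symbol. Where a gene has several probe sets, the 1 of highest average level in the 8 arrays stands for it (9010 of 18193 genes). A gene was tested if it reached 5 on at least 2 arrays, so a gene low at 1 day could enter through the other day alone. The fit used limma 3.58.1 with statmod 1.5.0 in R 4.3.3: day and line as terms, empirical Bayes moderation with a variance trend, Benjamini-Hochberg adjustment over 15635 genes; a second fit added their interaction. The fit was also run on simulated data with the same noise on every array of a gene. In the real data the SD of replicate differences was 0.779 for day 1 9A1 and 0.196 for day 5 14B3. The simulation therefore does not cover arrays of unequal spread. Probe sets of related genes can cross-hybridise.

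Of 890 genes written into 32 lists, 826 are on the table and 788 were tested; the others were not analysed here. The comparison, lists and tests were chosen with earlier results of these data known. Genes named by rule were the 12 largest rises and falls, up to 2 called members per list and direction, a panel of 13 markers and the largest differences between lines. Other genes named were chosen after their values were seen. Replicate numbers were not treated as pairs, because the labels name none. The deviations of same-numbered arrays correlated at 0.375 in 9A1 and -0.018 in 14B3. Alternatives covered the filter, probe set choice, scaling, weights, moderation, line term, replicate block, all 12 arrays, each line alone and each array left out. Promoter sequences and gene neighbours come from RefSeq tables for GRCm38.p6; no genome build applies to the array values.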

Additional observations from a re-analysis of the deposited data

Results flagged for a closer look

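In 28 of 224 groups of 4 arrays examined, each day of each named gene with the lines mixed, 1 array lay far from the other 3, a gap that chance gives in about 1 in 20 groups. All 28 were arrays of line 9A1. Day 1 replicate 1 of 9A1 was low for Apoc3 (5.65 against 7.09 to 7.21), H2-D1 (9.07 against 10.04 to 10.24), Vil1 (11.12 against 12.03 to 12.12), Srebf2 (10.46 against 10.92 to 11.02) and Lamb3 (9.23 against 11.27 to 11.52). It was high for Id3 (9.36 against 7.64 to 7.76), Sox9 (9.24 against 7.50 to 7.64), Cd44 (12.51 against 10.77 to 11.01) and Cyp1b1 (11.44 against 9.98 to 10.23). Day 1 replicate 2 of 9A1 was low for Alb (7.39 against 9.58 to 9.99), Pcna (11.88 against 12.26 to 12.33), Ndufa5 (9.66 against 10.81 to 10.99), Nupr1 (8.84 against 10.38 to 10.53), Anxa1 (12.27 against 12.77 to 12.85), Slc44a2 (8.93 against 10.49 to 10.70) and Cnn3 (11.12 against 12.38 to 12.46), and high for Lypd8 (9.60 against 7.16 to 7.36) and G6pc (5.32 against 4.71 to 4.74). At day 5, replicate 1 of 9A1 was high for Cd44 (10.83 against 9.03 to 9.26). Day 5 replicate 2 of 9A1 was low for Cpt1a (11.09 against 11.72 to 11.74), Glul (10.88 against 11.67 to 11.81), Psat1 (6.44 against 7.21 to 7.22), Cd9 (8.50 against 9.63 to 9.64), Ccnb2 (5.56 against 6.81 to 7.05), Anxa1 (9.07 against 9.91 to 9.95), Gsn (6.45 against 7.19 to 7.24) and Hmga2 (6.67 against 7.86 to 8.06), and high for Vil1 (12.96 against 12.67 to 12.71). Among the genes low on that array, Ccnb2 is a mitotic cyclin and Hmga2 a chromatin protein of embryonic cells.

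The change from day 1 to day 5 differed between the lines by limma's interaction term for 11 genes, given here as the change in 14B3 minus that in 9A1. Several of the genes with the larger rise in 9A1 encode gut proteins: Heph (-4.36), which oxidises exported iron, Mep1a (-3.55), a brush border protease, and the signalling peptides Guca2a (-3.54) and Guca2b (-3.28). The carriers Slc6a20a, of imino acids, and Slc5a8, of short fatty acids, had -3.06 and -3.05. H2-Q2, an MHC class I gene, had -4.62, Ms4a6b -4.05, Mfsd4b1 -3.49 and Mylk3 -2.76. Heph, Slc6a20a and Mfsd4b1 passed the filter through their day 5 arrays alone, and H2-Q2 and Slc5a8 through those of 9A1 alone. Nepn had 4.33, the larger rise in 14B3. Each of the 11 lost its call when any 1 of the 14B3 arrays was left out (adjusted p between 0.0537 and 0.363).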

How the results depend on the processing

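Of the alternatives tried, those to the filter, the scaling (median centring, quantile normalisation), the moderation, the line term and the mean of probe sets kept the 3933 calls, the 2112 rises and the 1821 falls within 1.5 times. Counts of calls, rises and falls were 6563, 3638 and 2925 with every probe set tested on its own, and 555, 473 and 82 in 9A1 alone, where 542 of the calls were shared with the fit of both lines. There were 6708 calls and 3731 falls with array weights, and 3074 falls in 14B3 alone, where 3744 of 5796 calls were shared. A stricter adjusted p of 0.01 left 2354 calls and a difference of at least 2-fold 1664. Leaving out 1 array gave 2812 (day 5 14B3 replicate 1) to 5892 calls (day 1 9A1 replicate 2), 1610 to 2591 rises and 1167 to 3301 falls. The 11 differences between lines became 6 with all 12 arrays and 0 to 1936 with 1 array left out, the most without day 1 9A1 replicate 1. Every probe set means a larger number of tests. Either line alone has the same number of arrays, yet 9A1 gave 555 calls and 14B3 gave 5796, beside 3933 with both lines. The cause of these and the other shifts was not tested.

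The replicate block, which treats same-numbered arrays of a line as pairs, gave 4091 calls, 2074 rises and 2017 falls, with 3702 of the calls shared. The labels name no pairs. Deviations of same-numbered arrays correlated at 0.375 in 9A1 and -0.018 in 14B3, so a pairing in 9A1 is not excluded. 3 directions turned: Nepn was -0.65 in 9A1 alone, and Hnf4a was -0.0100 after quantile normalisation and -0.0162 in 9A1 alone. Of 112 named genes, 47 lost their call in 9A1 alone and 10 with all 12 arrays, among them Alb, Ttr, Vil1, Epcam, Prom1, Gjb1, Gja1, Aqp1, Srebf2 and Crim1. Background limits the size of 103 rises with a day 1 mean under 5 and 26 falls with a day 5 mean under 5.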

Other observations

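Some genes that rose by at least 8-fold lie beside one another. Of 171 such genes with a position in the RefSeq table, 41 lay within 250 kb of another, in 14 runs, a pattern looked for after the values were seen and described without a test and without the same share over all genes. The longest run held 7 genes of glucuronide and sulfate conjugation on chromosome 5: Ugt2b1 (3.12), Ugt2b36 (3.25), Ugt2b5 (3.07), Ugt2a3 (5.20), Ugt2b38 (4.33), Sult1b1 (5.74) and Sult1d1 (3.15), with Ugt2b35 between them at 1.33. On chromosome 3, Mttp (5.58), Adh1 (5.01), Adh6a (6.10) and Adh4 (4.31) rose in 1 run, in which Adh6b, Adh7 and Trmt10a were not called (-0.11, 0.10 and -0.21). On chromosome 10, Myo1a (3.39) and the retinol dehydrogenases Rdh9 (3.94), Rdh16f2 (4.08) and Rdh7 (4.24) rose beside Zbtb39, which had -0.01. The apolipoprotein genes Apoa1, Apoc3 and Apoa4 lie together on chromosome 9, Fga and Fgb on chromosome 3, and Abcg5 and Abcg8 on chromosome 17. In the run of Reg genes on chromosome 6, Reg3b (4.29) and Reg1 (3.53), secreted lectins of gut and pancreas, rose, while Reg2, Reg3d and Reg3a were not called (0.04, -0.19 and 0.64). Several runs are families of near-identical genes, whose probes may read one another.

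Genes of bile and organic anion transport were also looked at after the values were seen. Abcc2, the pump of conjugates into bile and gut lumen, was at 6.29 and 6.47 in 9A1 and 6.19 and 5.72 in 14B3 at day 1, and 11.90 and 11.83 in 9A1 and 11.75 and 11.94 in 14B3 at day 5, a rise of 5.69 ± 0.16 (limma adjusted p = 4.97e-07). Slc51a and Slc51b, the paired subunits of the basolateral bile acid exporter of ileum and duct, rose by 2.79 ± 0.34 and 3.66 ± 0.19, and Abcb1a, a drug pump, by 2.07 ± 0.12. Abcb11, the bile salt pump of hepatocytes, had 0.33 ± 0.18 and was not called, nor were Cyp7a1 (0.06 ± 0.19) and Cyp8b1 (0.00 ± 0.16), the hepatocyte enzymes of bile acid synthesis.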
